A study of Mus musculus with 6 samples.

Results

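Tissue-resident lymphocytes stay in the organ they have entered instead of returning to the blood, and a small group of genes is known for holding them there. The 6 genes described here are Zfp683, Prdm1, Hic1, Bhlhe40, Litaf and Cd69, chosen by symbol from the 55487 genes of the deposited count table, and each symbol matched 1 gene. Zfp683 (Hobit) and Prdm1 (Blimp-1) encode related zinc-finger repressors that shut off tissue-exit genes. Hic1 is a zinc-finger repressor of intestinal lymphocytes that retinoic acid induces, and Bhlhe40 is a basic helix-loop-helix repressor that resident T cells need for metabolic fitness and cytokine output. Litaf encodes a small protein of the endosomal and lysosomal membrane that is listed in residency signatures. Cd69 encodes a surface lectin that binds the exit receptor S1PR1 inside the cell and keeps it off the surface, and it is also an early activation marker.

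RNA was sequenced from live CD45+CD3ε+ cells that had been sorted out of small-intestinal epithelium. All mice were wild type, on the C57BL/6J background. The B220+ cells, which the labels call X cells, are set here against the B220− cells, which the labels call T cells, with 3 libraries in each group. Every sorted cell had CD3ε, which belongs to the T cell receptor, and CD45, a phosphatase of all leukocytes, and the gates differed in B220, the CD45 isoform by which B cells are usually sorted. No library is labelled as treated with the RXR agonist of the series title, and the sources used here give neither the age and sex of the mice nor whether mice were pooled. Whether replicate libraries stand for separate mice is not stated in the labels. The p-values below therefore measure only how far these libraries spread, and that spread may be technical. Total counts were 11810859 to 39591312 in B220+ and 11320363 to 18773165 in B220− libraries. A gene is called higher or lower in B220+ cells at an edgeR adjusted p under 0.05.

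Both groups expressed the markers of T cells of the epithelium, with Itgae, the αE integrin chain, at 2633 ± 141 CPM (counts scaled to a common library size, mean ± SD, n = 3) in B220+ cells and 2567 ± 103 CPM in B220− cells. Cd4, the helper coreceptor, spanned 6.67 to 8.23 CPM in B220+ libraries and 125 to 215 CPM in B220− libraries, and Cd8b1, the CD8β chain, 19.4 to 29.1 CPM in B220+ libraries and 164 to 288 CPM in B220− libraries. In sorted bulk samples, fewer cells of a type and less RNA per cell cannot be told apart, and this applies to every difference below. Among markers of other cells, the summed level of 14 epithelial genes was 343 to 390.3 CPM in B220+ and 316 to 383 CPM in B220− libraries, most of it from Cdh1, which lymphocytes of the epithelium also express. The 12 myeloid genes summed to 18.4 to 19.5 CPM in B220+ and 24.2 to 25.7 CPM in B220− libraries, with S100a8 and S100a9 at 0 in all 6, and the 10 stromal genes to 34.5 to 40.9 CPM in B220+ and 31.8 to 34.6 CPM in B220− libraries, with Lum at 0. The 13 B and plasma cell genes summed to 363 to 609 CPM in B220+ and 252 to 1165 CPM in B220− libraries, with Mzb1 at 0, while the 6 NK and innate lymphoid genes summed to 99.3 to 101 CPM in B220+ and 198 to 234 CPM in B220− libraries. The 4 mast cell genes, with Kit the most abundant, summed to 202 to 317 CPM in B220+ and 49.9 to 107 CPM in B220− libraries. Of the 3 tested 0 were called higher and 1 lower, against 11.1% of all tested genes called in either direction. Their log2 fold changes were positive for 1 and negative for 2. A fit with the replicate number as a block called 1 higher and 1 lower, against 17.5% of all tested genes called.

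Zfp683 and Prdm1 are shown first as sequence, because the proteins they encode read the same DNA motif through like zinc fingers and because their levels differed between the groups by unlike amounts. The stretch below is the most alike run of 90 coding bases that lies in 1 exon of each gene, read from the GENCODE M21 transcripts on mm10, and capitals mark the bases that differ between the genes.
Zfp683, exon 3, chr4:134056088-134056177, plus strand: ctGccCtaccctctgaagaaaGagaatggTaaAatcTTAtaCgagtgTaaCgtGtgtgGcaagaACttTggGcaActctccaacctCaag
Prdm1, exon 6, chr10:44441059-44441148, minus strand: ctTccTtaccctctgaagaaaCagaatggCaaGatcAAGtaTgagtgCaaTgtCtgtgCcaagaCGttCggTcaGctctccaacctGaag
The genes had 71 of these 90 bases in common. Over the whole local alignment of the coding sequences, 229 of 296 aligned bases (77.4%) were identical, out of 1374 coding bases in Zfp683 and 2568 in Prdm1. The longest run of identical bases shared by any of their transcripts was 15.

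Zfp683 was the member that differed most. It had 1.95, 1.51 and 1.20 CPM in B220+ replicates 1, 2 and 3, against 11.8, 7.03 and 7.26 CPM in B220− replicates 1, 2 and 3. Every B220+ library lay below every B220− library. Zfp683 (ENSMUSG00000049410, mm10 chr4:134053838-134058996, plus strand) fell, with a log2 fold change of −2.50 ± 0.27 (SE) and an edgeR adjusted p of 6.81e-05, which is 5.67-fold lower in B220+ cells. It was also the member with the fewest reads, with 100 counts summed over B220+ libraries and 426 summed over B220− libraries. Dropping any single library kept the call, and the highest edgeR adjusted p among those 6 fits was 0.00164. Of the 818 genes called lower, 124 had a log2 fold change at or below that of Zfp683. Natural killer and innate lymphoid cells also express Zfp683. Cells were gated on CD3ε, and T cells of the epithelium share most of the 6 markers of those other cells. Of the 5 tested markers 1 was called higher (Klrb1c, NK1.1, at 22.1 ± 1.08 CPM in B220+ cells, against 10.4 ± 1.59 CPM in B220− cells) and 3 were called lower, and the sum given above was lower in every B220+ library. Much of that sum in B220− libraries was Il7r, which is also on the list of recirculating T cells below. Il7r stood at 18.9 ± 4.58 CPM in B220+ cells, against 128 ± 26.5 CPM in B220− cells. Beside these and the marker counts below, 11.1% of all tested genes were called in either direction. The part of natural killer and innate lymphoid cells in the difference was not tested.

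Prdm1, the master regulator of plasma cells and of terminal effector T cells, was far more abundant and differed little. Its level was 112, 131 and 106 CPM in B220+ replicates 1, 2 and 3, against 133, 155 and 146 CPM in B220− replicates 1, 2 and 3. The groups did not overlap, but the highest B220+ library came within a few CPM of the lowest B220− library. Prdm1 (ENSMUSG00000038151, mm10 chr10:44437177-44528501, minus strand) fell, with a log2 fold change of −0.32 ± 0.088 (SE) and an edgeR adjusted p of 0.0353, or 1.25-fold. Dropping single libraries ended that call in 4 of 6 fits. Its edgeR adjusted p was 0.123 when B220+ replicate 1 was dropped, 0.154 for B220+ replicate 3, 0.106 for B220− replicate 2 and 0.123 for B220− replicate 3. Those fits used group alone. With the replicate number as a block and all 6 libraries, the edgeR adjusted p of Prdm1 was 8.76e-04, at a log2 fold change of −0.32. Plasma cells also express Prdm1. The sort gated on CD3ε, and the sums of the 13 B and plasma cell genes overlapped between the groups. Of the 6 tested 0 were called higher and 1 lower, Sdc1, at 0.846 ± 0.390 CPM in B220+ cells, against 3.77 ± 2.37 CPM in B220− cells (edgeR adjusted p = 0.0203, or 0.127 without B220+ replicate 2). Ighm was called higher with the replicate block. Their part in the difference was not tested.

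Because both genes were read in the same libraries, their ratio is free of library size. Per exonic base, Prdm1 stood 15.1, 22.8 and 23.2 times above Zfp683 in B220+ replicates 1, 2 and 3, against 2.98, 5.83 and 5.32 times in B220− replicates 1, 2 and 3. The lowest B220+ ratio exceeded the highest B220− ratio. On the log2 scale of counts, Zfp683 over Prdm1 averaged −6.22 ± 0.35 in B220+ and −4.09 ± 0.52 in B220− cells (SD, n = 3 each), a difference of −2.12. The exact two-sided permutation test gave p = 0.1, the smallest value that 3 libraries against 3 allow.

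**Figure D1:**
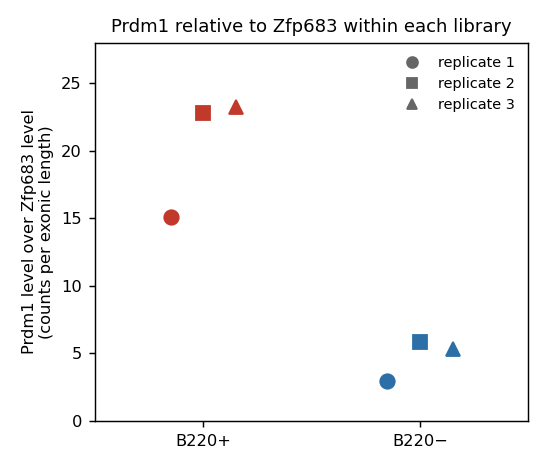
Level of Prdm1 divided by that of Zfp683 in each library, both as counts per exonic length (y axis, a ratio without unit, starting at 0), in B220+ and B220− cells, with 1 symbol per library. The 3 B220+ libraries lie at 15.1 to 23.2 and the 3 B220− libraries at 2.98 to 5.83.

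In the genome the 12 nearest tested neighbours of the 6 genes were looked up after the values of the 6 were known, and 1 of the 12 was called, against 11.1% of all tested genes. It was Crybg2 (ENSMUSG00000012123, chr4:134060815-134092504), which begins 1.82 kb after the end of Zfp683 on the same strand. Crybg2 had 2.63, 1.56 and 1.13 CPM in B220+ replicates 1, 2 and 3, against 14.0, 10.6 and 14.3 CPM in B220− replicates 1, 2 and 3. It fell, with a log2 fold change of −2.91 ± 0.25 (SE) and an edgeR adjusted p of 1.75e-05, or 7.53-fold, and kept its call when any single library was dropped. On the other side of Zfp683, Dhdds, 52.9 kb away, stood at 30.6 ± 1.56 CPM in B220+ cells, against 28.6 ± 1.26 CPM in B220− cells (edgeR adjusted p = 0.606).

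Cd69 was the second member to fall clearly. It was read at 317, 394 and 377 CPM in B220+ replicates 1, 2 and 3, against 533, 489.6 and 481 CPM in B220− replicates 1, 2 and 3. The gap between the groups, from 394 to 481 CPM, was slightly wider than the range within B220+ cells. Cd69 (ENSMUSG00000030156, mm10 chr6:129267325-129275436, minus strand) fell, with a log2 fold change of −0.47 ± 0.085 (SE) and an edgeR adjusted p of 0.00325, or 1.38-fold, and kept its call when any single library was dropped. Its range within B220+ cells rested mainly on replicate 1. By mean CPM over all 6 libraries, it stood above 97.8% of tested genes.

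Litaf went the other way. Its level was 521, 465 and 521 CPM in B220+ replicates 1, 2 and 3, against 391, 384 and 389 CPM in B220− replicates 1, 2 and 3. The B220− libraries were nearly identical to each other, and every B220+ library lay above them. Litaf (ENSMUSG00000022500, mm10 chr16:10959275-11066157, minus strand) rose, with a log2 fold change of 0.37 ± 0.069 (SE) and an edgeR adjusted p of 0.00356, or 1.29-fold, and kept its call when any single library was dropped. Myeloid cells also express Litaf. Sorted cells were gated on CD3ε, and the sum of the 12 myeloid genes was lower in every B220+ library. Of the 4 tested 0 were called higher and 1 lower, Lyz2, at 0.303 CPM in B220+ cells, against 2.07 CPM in B220− cells. Their part in the difference was not tested.

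The promoters of Litaf and Prdm1 are shown because these members moved in opposite directions. RefSeq promoters (GRCm38.p6) were matched for 3 of the 6 members, and the 250 bases before the start are printed, with capitals for motif matches on either strand. Both starts are internal to the gene spans given above, since a longer GENCODE transcript of each gene starts farther upstream.
Litaf, chr16:10993122-10993371, minus strand: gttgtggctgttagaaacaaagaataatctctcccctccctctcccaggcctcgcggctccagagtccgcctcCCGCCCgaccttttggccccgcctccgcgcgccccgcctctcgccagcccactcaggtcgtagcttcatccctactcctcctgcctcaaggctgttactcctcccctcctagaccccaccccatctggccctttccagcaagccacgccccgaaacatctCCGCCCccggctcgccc
Prdm1, chr10:44458749-44458998, minus strand: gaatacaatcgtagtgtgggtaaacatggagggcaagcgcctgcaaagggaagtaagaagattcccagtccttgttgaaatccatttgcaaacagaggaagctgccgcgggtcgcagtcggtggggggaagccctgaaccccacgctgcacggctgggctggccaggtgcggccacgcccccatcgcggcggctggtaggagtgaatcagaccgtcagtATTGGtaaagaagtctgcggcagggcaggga
The motifs searched were the GC box GGGCGG, the CCAAT box CCAAT, the E-box CACGTG that BHLHE40 binds and GTGAAAG, a core of the Blimp-1 motif. The Litaf window held 2 GC boxes and that of Prdm1 held 1 CCAAT box, and no match overlapped another. Hic1, which was not called, had windows that are not printed. They held 3 GC boxes and 2 CCAAT boxes (chr11:75170256-75170505) and 2 GC boxes (chr11:75168153-75168402). Whether these motifs bear on the direction of change was not tested. Of 32851 promoter windows of this length, 32.7% held a GC box, 33.8% a CCAAT box, 6.02% the E-box and 3.57% the Blimp-1 core. Neither printed window held the letters of the E-box or of the Blimp-1 core.

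Hic1 and Bhlhe40 did not pass the test. Hic1 (ENSMUSG00000043099, mm10 chr11:75164565-75169519, minus strand) had 299, 336 and 286 CPM in B220+ replicates 1, 2 and 3, against 315, 357 and 338 CPM in B220− replicates 1, 2 and 3. The groups overlapped, although each B220+ library lay below the B220− library of the same number, with log2 differences of −0.075, −0.089 and −0.24 for numbers 1, 2 and 3. The log2 fold change was −0.13 (SE 0.078, 95% interval −0.30 to 0.036, edgeR adjusted p = 0.364). Fibroblasts also express Hic1. The gate included CD45, and the sums of the 10 stromal genes overlapped narrowly between the groups. Of the 3 tested 0 were called higher and 1 lower, Pdgfrb, at 0.213 CPM in B220+ cells, against 1.64 CPM in B220− cells. Their part in the values of Hic1 was not tested.

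Bhlhe40 (ENSMUSG00000030103, mm10 chr6:108660629-108666925, plus strand) had 429.5, 365 and 426 CPM in B220+ replicates 1, 2 and 3, against 438, 366 and 419 CPM in B220− replicates 1, 2 and 3. Libraries of the same number were almost equal, and replicate 2 was the lowest in both groups. The log2 fold change was −0.0029 (SE 0.086, 95% interval −0.19 to 0.18, edgeR adjusted p = 0.990). The opposite-strand gene 0610040F04Rik overlaps 118 exonic bases of Bhlhe40 and had 9.74% as many counts, at 39.8 ± 3.84 CPM in B220+ cells, against 39.9 ± 2.91 CPM in B220− cells. Reads within those 118 bases, out of 4705 exonic bases of Bhlhe40, cannot be told apart if strand was ignored in counting.

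**Figure D2:**
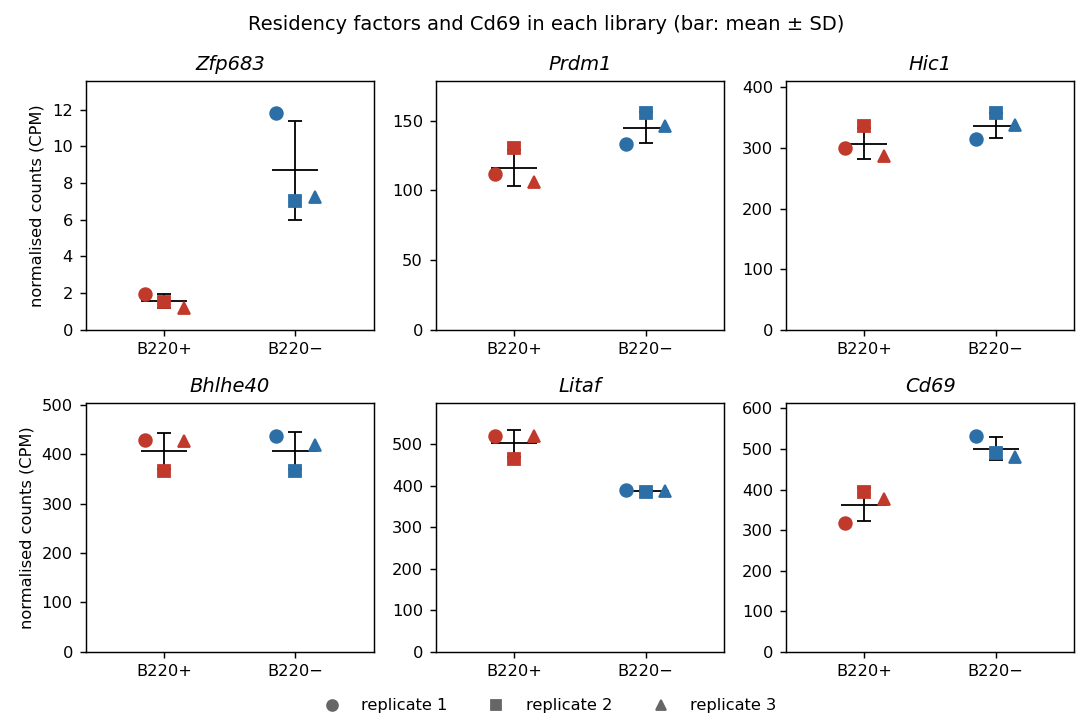
Normalised counts (CPM, y axes starting at 0, 1 panel per gene) in the 3 B220+ and 3 B220− libraries. Symbols stand for replicate numbers and bars for the mean ± SD. Zfp683, Prdm1 and Cd69 lie lower in every B220+ library, Litaf lies higher, and Hic1 and Bhlhe40 overlap.

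Counted together, 1 of the 6 genes was called higher and 3 were called lower in B220+ cells, against a background of 11.1% of 14722 tested genes called in either direction (5.58% higher and 5.56% lower). All 6 passed the filter on low counts. Among the 2359 tested genes with a mean of at least 100 CPM, where 5 of the 6 lie, 15.4% were called. The 4 called members were also the 4 whose libraries did not overlap between the groups, which held for 28.1% of tested genes (14.1% higher and 13.9% lower). Outside Zfp683 the changes were small: the median gene called lower changed 1.72-fold and the median gene called higher 1.53-fold, against 1.25-fold for Prdm1, 1.38-fold for Cd69 and 1.29-fold for Litaf. Those medians cover called genes of every level and are not matched for abundance. By mean CPM, Prdm1, Cd69 and Litaf stood above 88.1%, 97.8% and 97.9% of tested genes. A fit that took the replicate number as a block called 2569 genes (17.5%, with 8.85% higher and 8.6% lower) in place of 1639, and made the same 4 calls among the 6 genes.

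**Figure D3:**
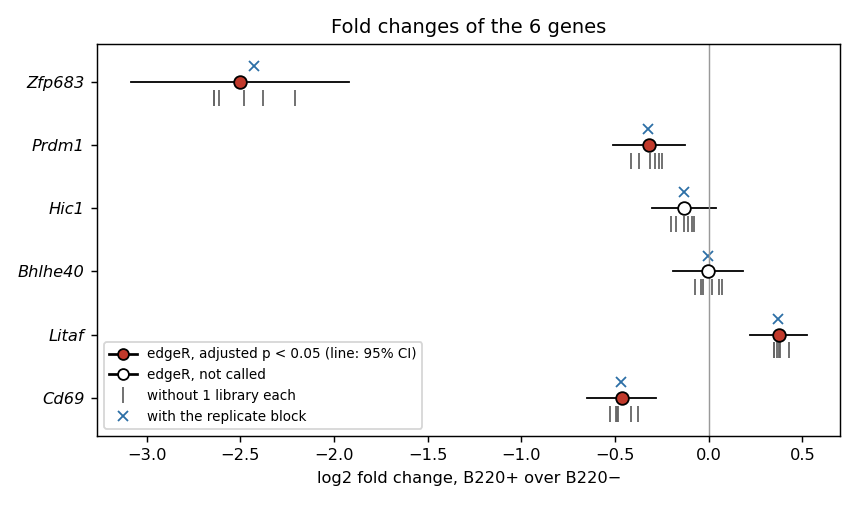
Log2 fold changes of the 6 genes, B220+ over B220− (x axis), with 95% intervals as lines. Filled circles passed an adjusted p of 0.05, ticks are fits without single libraries, and crosses are the fit with the replicate block. Zfp683 stands apart at −2.50, and the other 5 lie between −0.47 and 0.37.

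Set against each other per exonic length, the members kept a wide span of levels in both groups. In B220+ cells Litaf came first at 97.4 ± 6.33 CPM per kb, followed by Bhlhe40 at 86.5 ± 7.65, Hic1 at 81.9 ± 6.84, Cd69 at 55.7 ± 6.17, Prdm1 at 20.8 ± 2.33 and Zfp683 at 1.06 ± 0.256 CPM per kb (SD, n = 3). The ranges of Litaf and Bhlhe40 overlapped, as did those of Bhlhe40 and Hic1, while the lower 3 were each separate from their neighbours. In B220− cells the order was Hic1 at 89.8 ± 5.56, Bhlhe40 at 86.6 ± 7.87, Cd69 at 77.0 ± 4.31, Litaf at 75.2 ± 0.646, Prdm1 at 26.0 ± 1.96 and Zfp683 at 5.91 ± 1.83 CPM per kb. There the ranges of each neighbouring pair among the first 4 overlapped. Litaf thus stood above Hic1 in B220+ cells and below Hic1 and Cd69 in B220− cells by their means.

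The genes whose pattern over the 6 libraries was nearest to each member were sought among 10762 genes with a mean of at least 5 CPM, by the root mean square difference of centred log2 CPM. For Zfp683 they were Oas3, an antiviral synthetase (0.17), Sit1, a T cell adaptor (0.24), and the kinase gene Src (0.26). Prdm1 was nearest to the receptor gene Notch2 (0.046), the haem synthesis gene Alas1 (0.049) and the IL-17 receptor adaptor gene Traf3ip2 (0.052). Cd69 was nearest to the interferon-inducible GTPase gene Tgtp2 (0.037), then Zfp821 (0.051) and Dennd2d (0.054), and Litaf to Atraid (0.027), 4933407L21Rik (0.032) and the splicing gene Isy1 (0.036). The distances ran from 0.015 to 0.029 for Hic1 (Ccdc88c, Asxl2, Ccar2) and from 0.019 to 0.023 for Bhlhe40 (5530601H04Rik, Tgif1, Iah1). The median distance over the genes searched was 1.23 for Zfp683 and 0.16 to 0.28 for the other members. Distances are therefore to be read against the median of the same member, not between members. Among the members themselves the nearest pair was Prdm1 and Hic1, at 0.098. These are descriptions over 6 libraries that share 2 groups.

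Genes that mark recirculating T cells were mostly lower beside the residency factors. Of 28 tested genes of this list 0 were called higher and 21 lower (median log2 fold change −1.20, against −0.0074 over all tested genes), and the other 4 had too few reads to be tested. Over all tested genes 5.58% were called higher and 5.56% lower. This list and those below were chosen with earlier results of these data known. S1pr1, the exit receptor that CD69 binds, stood at 1.55 ± 0.282 CPM in B220+ cells, against 23.1 ± 4.02 CPM in B220− cells (log2 fold change −3.96, edgeR adjusted p = 1.92e-07). Ccr7, the lymph node homing receptor, had a log2 fold change of −5.18, and Cmah, an enzyme that modifies sialic acid, one of −3.76. Tcf7, a transcription factor of naive and memory cells and the most abundant gene of the list, stood at 240.4 ± 58.7 CPM in B220+ cells, against 254 ± 19.9 CPM in B220− cells and was not called (edgeR adjusted p = 0.873).

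The list of genes known as repressed by Blimp-1 or Hobit overlaps that one. Among its 11 tested genes 0 were called higher and 3 lower, with a median log2 fold change of −0.19. The shares over all tested genes were 5.58% higher and 5.56% lower. The 3 were Ccr7, S1pr1 and Klf2, the factor that drives S1pr1, which stood at 27.7 ± 8.61 CPM in B220+ cells, against 82.5 ± 5.62 CPM in B220− cells (edgeR adjusted p = 0.0122, or 0.0763 without B220− replicate 1). Tcf7 was among those not called. In the rest of the PRDM family, 6 of 13 genes had enough reads to be tested. Of these 0 were called higher and 1 lower, against 11.1% of all tested genes called in either direction. The gene called was Prdm16, at 0.328 ± 0.215 CPM in B220+ cells, against 1.84 ± 0.655 CPM in B220− cells (edgeR adjusted p = 0.00652). Prdm2, the most abundant of the family list, stood at 174 ± 12.0 CPM in B220+ cells, against 179 ± 7.20 CPM in B220− cells.

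Genes of the residency programme itself went both ways. Of 33 genes, all tested, 7 were called higher and 8 lower (13 and 9 with the replicate block), and the median log2 fold change was 0.024. Among all tested genes 5.58% were called higher and 5.56% lower (8.85% and 8.6% with the replicate block). The count called higher rested on few libraries: it was 1 without B220− replicate 3, 2 without B220+ replicate 1 or 2, and 3 without B220− replicate 1, while the count called lower was 6 to 8 over the 6 such fits. Those higher included Cd244a, a SLAM family receptor, at 573 ± 42.7 CPM in B220+ cells, against 375 ± 30.6 CPM in B220− cells (edgeR adjusted p = 3.48e-04). Chn2 (1.51-fold), Ctnna1, α-catenin (1.46-fold), and Pygl, glycogen phosphorylase (1.25-fold), were also called higher but did not keep the call when single libraries were dropped. Their edgeR adjusted p then reached 0.0826 for Chn2 and 0.122 for Ctnna1 without B220+ replicate 2, and 0.135 for Pygl without B220+ replicate 1. Chn2 kept its call in 3 of those 6 fits, and Ctnna1 and Pygl in 1 each. Those lower included Inpp4b, an inositol phosphatase (2.75-fold), Rgs10, a regulator of G proteins (2.74-fold), the chemokine gene Ccl4 (1.99-fold) and Cish, a cytokine signalling inhibitor (1.84-fold). Rgs1, the most abundant gene of the list, stood at 4220 ± 217 CPM in B220+ cells, against 3582 ± 226 CPM in B220− cells, with an edgeR adjusted p of 0.105, or 0.0295 with the replicate block.

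Transcription factors and receptors linked to residency were mixed as well. Of 29 tested, 5 were called higher and 7 lower (8 and 11 with the replicate block, and 3 higher without B220+ replicate 2 or 3 or B220− replicate 3), with a median log2 fold change of −0.10. The shares of all tested genes were 5.58% higher and 5.56% lower (8.85% and 8.6% with the replicate block). Il2rb, the receptor chain for interleukin-15, stood at 1819 ± 127 CPM in B220+ cells, against 871 ± 162 CPM in B220− cells (edgeR adjusted p = 4.71e-04). Tox rose 1.33-fold, and the AP-1 gene Fosl2 (1.58-fold) and the aryl hydrocarbon receptor gene Ahr (1.26-fold) were called higher. When single libraries were dropped, Fosl2 kept its call in 4 of 6 fits and Ahr in 2 of 6. Their highest edgeR adjusted p, 0.0583 and 0.166, came without B220+ replicate 2. The libraries of the groups overlapped for Ahr. Rora (3.43-fold), Irf4 (3.16-fold), Smad3, a carrier of TGF-β signals (2.09-fold), and Zeb2 (1.72-fold) fell. Junb, the most abundant, stood at 3118 ± 269 CPM in B220+ cells, against 3475 ± 299.9 CPM in B220− cells and was not called (edgeR adjusted p = 0.379). Beside Cd69, the activation genes Nr4a1, Nr4a2 and Nr4a3 were not called, with log2 fold changes of −0.62, 0.51 and −0.21 and edgeR adjusted p of 0.180, 0.203 and 0.667. With the replicate block all of Nr4a1 (8.11e-07), Nr4a2 (6.76e-06) and Nr4a3 (0.0196) passed, by edgeR adjusted p, in those directions.

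Genes linked to single members were counted in the same way, against 5.58% of all tested genes called higher and 5.56% called lower. BHLHE40 is part of the circadian clock, and of 14 tested clock genes 1 was called higher and 6 lower (median log2 fold change −0.30). Hlf, a clock output factor, stood at 0.619 ± 0.448 CPM in B220+ cells, against 18.3 ± 5.55 CPM in B220− cells. Nr1d1 had a log2 fold change of −1.15 (edgeR adjusted p = 0.00878, or 0.0517 without B220− replicate 3), Arntl (BMAL1) one of −0.81 and Tef one of 0.32, while Per1, the most abundant, was not called (581 ± 72.2 CPM in B220+ cells, 635 ± 56.6 CPM in B220− cells). Among 5 cytokine genes that BHLHE40 is known to affect, Csf2 (GM-CSF) was higher, at 9.25 ± 2.97 CPM in B220+ cells, against 1.77 ± 0.623 CPM in B220− cells, and Ifng (36.0 ± 3.92 CPM in B220+, 90.2 ± 7.04 CPM in B220− cells) and Il17a, with 3 counts over the B220+ libraries, were called lower. Il10, a gene that BHLHE40 represses, stood at 2.16 ± 1.73 CPM in B220+ cells, against 14.5 ± 6.49 CPM in B220− cells (edgeR adjusted p = 0.0528, or 6.57e-09 with the replicate block).

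In the list linked to Hic1, which holds its paralog, corepressors, retinoid receptors and gut homing genes, 0 of 9 tested genes were called higher and 3 lower. The 3 were Rara, a retinoic acid receptor (1.59-fold), and the gut homing genes Ccr9 (1.44-fold) and Itgb7 (1.38-fold). Beside this list and those of Litaf and Cd69, 5.58% of all tested genes were called higher and 5.56% lower. In the list linked to Litaf, 2 of 9 tested genes were called higher and 1 lower. The count called higher was 0 without B220+ replicate 2 and 1 without B220+ replicate 3 or B220− replicate 3. Cdip1, its close relative, was 1.29-fold higher and Nedd4, a ubiquitin ligase that binds LITAF, 1.25-fold higher, with edgeR adjusted p of 0.0177 and 0.0181 that reached 0.0809 without B220+ replicate 2 and 0.103 without B220− replicate 3. Tnf, the cytokine gene from which Litaf takes its name, was 3.01-fold lower (edgeR adjusted p = 0.0474), a call that was lost with no scaling, with no filter on low counts and without B220+ replicate 3 or any 1 of the B220− libraries, where its edgeR adjusted p reached 0.166. Of 4 tested genes linked to Cd69, S1pr1 alone was called (lower), and Slc3a2, a transporter chain found with CD69, stood at 465 ± 20.2 CPM in B220+ cells, against 421 ± 18.7 CPM in B220− cells (edgeR adjusted p = 0.233).

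**Figure D4:**
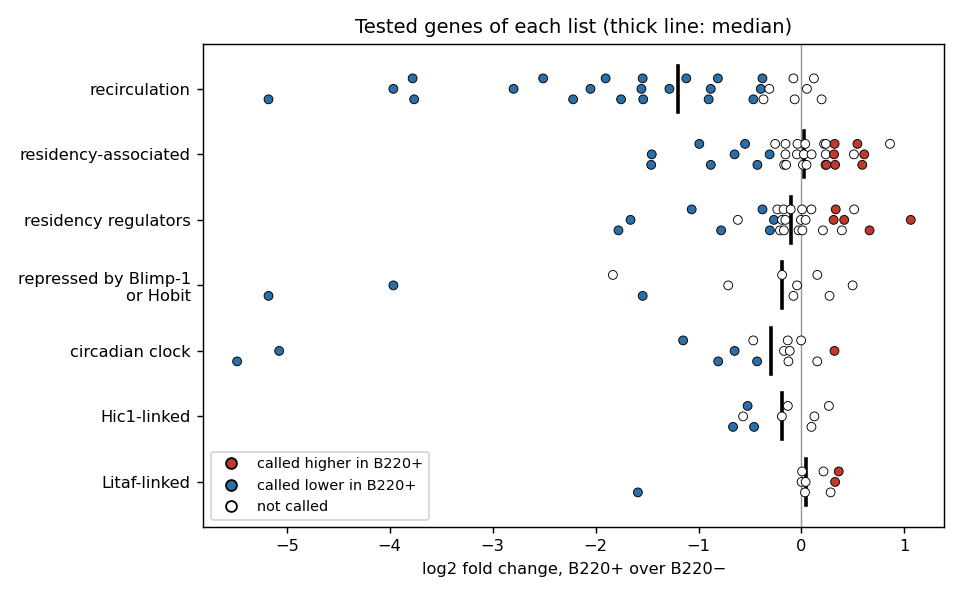
Log2 fold changes, B220+ over B220− (x axis), of the tested genes of 7 lists, with 1 circle per gene and a thick line for the median. Red circles were called higher, blue lower and white not called. Recirculation genes have a median of −1.20 with 21 of 28 called lower, and residency-associated genes a median of 0.024 with 7 called higher, a count of 1 to 9 without single libraries, and 8 lower. Over all tested genes 5.58% were called higher and 5.56% lower.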

How the data were processed

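Sorted CD3ε+ lymphocytes were sequenced by the submitters after preparation with a directional library kit, per the labels' protocols. The authors deposited raw counts, as whole numbers of reads for each gene with no scaling. Per the submitters' processing notes, featureCounts 1.6.3, HISAT2 2.1.0, SAMtools 1.9, Trimmomatic 0.38 and FastQC 0.11.7 were among the authors' tools, and the build was mm10. How strand was used in counting, and which annotation release, is not given in the sources used here. Exonic lengths come from GENCODE M21, whose coordinates 98.7% of the deposited gene models share.

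Counts were tested with edgeR 4.0.16 under R 4.3.3 (trimmed-mean scaling, filterByExpr, robust quasi-likelihood F test, group alone), with Benjamini-Hochberg adjustment over 14722 genes and calls at 0.05. SE is the log2 fold change over the square root of F. Alternatives were RLE or no scaling, no filter on low counts, DESeq2 1.42.0, the replicate block and leaving out each library. Same-numbered libraries correlated in their deviations from the group mean at 0.295, 0.246 and 0.272. Others stood at −0.20 to −0.067, but centring on the group mean makes them negative on average where same-numbered ones are positive. The numbers of the titles were therefore taken to pair the libraries in the block fit. No label states that pairing, so the main fit used group alone. No 2 libraries of a group agreed within sampling noise, since chi-square over its degrees of freedom was 7.37 to 16.2.

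The 6 genes and 17 gene lists, all of whose genes were found by symbol, were chosen with earlier results of these data known. Named from each list were up to 4 called genes per direction with the largest change and the most abundant tested gene, except that marker lists are given as sums and that some genes are not reported here. Genes nearest to a member were the 3 with the smallest profile distance. Crybg2, Dhdds, Itgae, Cd4, Cd8b1, Klrb1c, Il7r, Sdc1, Ighm, Pdgfrb, Lyz2, Il10 and the Nr4a genes fall outside that rule and were chosen after their values were seen.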

Additional observations from a re-analysis of the deposited data

How the results depend on the processing

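Zfp683, Cd69, Litaf and Hic1 kept their direction and their side of the threshold under all 11 alternatives. Prdm1 kept its direction under all 11, but dropping single libraries ended its call in 4 of 6 fits (log2 fold changes −0.41 to −0.25). Bhlhe40 was not called under any alternative, and its log2 fold change spanned −0.075 to 0.070 without 1 library, turning positive without B220+ replicate 2 (0.070), B220− replicate 1 (0.055) or B220− replicate 3 (0.016). The number of genes called was 1639, 2569 with the replicate block, and 970 to 1789 without 1 library, with 970 without B220+ replicate 2 and 1029 without B220− replicate 3. Under RLE scaling, no scaling, no filter and DESeq2 it was 1646, 1658, 2211 and 1760. The replicate block changed no call of the 6 genes. The log2 ratio of Zfp683 to Prdm1 differed by −2.12, and the exact sign-flip permutation test within same-numbered pairs gave p = 0.25, the smallest that 3 pairs allow. Of 374 recounts of the gene lists, 46 moved, either by over 1.5 times or by any change to or from 0. The cause of these shifts was not tested. Depth limits Zfp683 most, since 1 count is worth 0.025 to 0.087 CPM and its B220+ libraries had 17 to 60 counts.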
